A study of Mus musculus with 16 samples.

Results

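Genes that mark mast cells were followed in tooth germs of the mouse embryo. The 10 genes, taken by name but with earlier results of these data known, were *Mcpt1*, *Mcpt2*, *Mcpt4*, *Mcpt8*, *Cma1*, *Cpa3*, *Tpsb2*, *Kit*, *Ms4a2* and *Fcer1a*, out of 19938 genes with a probe set of their own on the array. The study had already listed *Mcpt2* among its top 10 incisor genes from these arrays, so its result here is not independent of that list. Each of the 10 had 1 probe set annotated to it alone. The samples were wild-type C57Bl6 tooth germs at E14.5, microdissected from the lower incisor (4 samples), the mandibular first molar (8 samples) and the maxillary first molar (4 samples). Every sample was RNA from a pool of 4 tooth germs on 1 Affymetrix Mouse Gene 1.0 ST array, and whether pools shared embryos or litters is not given in the sources used here. The p-values therefore measure the spread between these pools, which may be in part technical. Values are log2 signals after RMA (background correction, quantile normalization and a summary over the probes of a probe set), so that a difference of 1 is a doubling of the signal.

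Mast cells arise from blood progenitors, enter tissues as immature cells and fill their granules there with proteases, histamine and heparin. Their chymases and related serine proteases are encoded side by side in one gene cluster, the tryptases and carboxypeptidase A3 elsewhere. In the adult mouse, *Mcpt1* and *Mcpt2* are known from mucosal mast cells, *Mcpt4*, *Cma1*, *Tpsb2* and *Cpa3* from mast cells of connective tissue, and *Mcpt8* from basophils. Survival of the lineage depends on the receptor tyrosine kinase Kit and its ligand, and antigen is sensed through the high-affinity IgE receptor, whose alpha and beta chains are encoded by *Fcer1a* and *Ms4a2*. *Kit* is also used by melanoblasts and other cells, so it is not particular to mast cells. In a whole tooth germ, more cells of a type and more RNA per cell cannot be told apart.

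Promoter sequences were available for 8 of the 10 genes in RefSeq (GRCm38.p6). The 250 bases before the start are shown for 3 protease genes of the cluster and, for contrast, for *Cpa3*, which lies on another chromosome. Capitals mark AGATAA or TGATAA, the core of sites bound by GATA factors, which were searched on both strands.
Mcpt4, chr14:56062311-56062560, minus strand: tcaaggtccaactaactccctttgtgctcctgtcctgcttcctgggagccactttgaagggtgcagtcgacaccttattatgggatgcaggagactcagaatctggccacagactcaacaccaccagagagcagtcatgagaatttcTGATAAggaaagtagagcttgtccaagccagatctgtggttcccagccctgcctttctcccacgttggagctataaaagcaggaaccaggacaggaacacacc
Mcpt1, chr14:56017714-56017963, plus strand: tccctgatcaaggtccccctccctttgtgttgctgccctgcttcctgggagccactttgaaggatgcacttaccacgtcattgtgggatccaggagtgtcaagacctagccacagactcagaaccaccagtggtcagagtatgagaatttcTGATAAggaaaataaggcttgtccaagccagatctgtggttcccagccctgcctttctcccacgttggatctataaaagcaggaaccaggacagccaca
Cma1, chr14:55944676-55944925, minus strand: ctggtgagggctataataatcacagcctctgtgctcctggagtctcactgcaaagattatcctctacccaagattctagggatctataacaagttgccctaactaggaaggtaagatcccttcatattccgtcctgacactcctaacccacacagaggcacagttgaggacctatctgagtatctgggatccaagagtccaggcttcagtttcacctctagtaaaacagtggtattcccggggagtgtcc
Cpa3, chr3:20242182-20242431, minus strand: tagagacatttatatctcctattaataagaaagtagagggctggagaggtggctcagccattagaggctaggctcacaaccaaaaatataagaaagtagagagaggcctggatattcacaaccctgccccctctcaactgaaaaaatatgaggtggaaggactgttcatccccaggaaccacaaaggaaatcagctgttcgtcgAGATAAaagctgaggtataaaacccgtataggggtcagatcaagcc
The *Mcpt4* and *Mcpt1* stretches were identical at 213 of 260 aligned positions (81.9%), against at most 54.3% for the other pairs of the 28 possible. In both, TGATAA lay in the same orientation, at 103 and 99 bases before the start. *Cpa3* had AGATAA 46 bases before its start, and *Cma1* had no match. In all, 5 of the 8 promoters held one of these letter runs (*Ms4a2* and *Fcer1a* being the others), as did 16.6% of 32851 promoter windows of the same length. CATGTG, the E-box of MITF, was found in *Fcer1a* alone of the 8 and in 12.3% of all windows. Such a match is a stretch of letters and was not tested as a site.

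Some properties of the samples bear on all comparisons. Median log2 signals of the 16 samples lay at 6.80 to 6.99. Markers of dental epithelium and mesenchyme were present throughout (*Krt14*, a basal keratin, at 11.13 to 11.84), and *Hand2*, a regulator of the distal jaw, separated lower incisors at 10.09 to 10.47 from mandibular molars at 6.54 to 6.83 and maxillary molars at 6.36 to 6.59. Over all probe sets, mandibular molars 5 to 8 differed less from the maxillary molars (median root mean square log2 difference between samples 0.25) than from mandibular molars 1 to 4 (0.34), and the lower incisors differed less from mandibular molars 1 to 4 (0.32) than from 5 to 8 (0.38), a division that the labels do not name. For the 10 genes, lower incisors were therefore also compared with mandibular molars 1 to 4, and maxillary molars with mandibular molars 5 to 8. Counts of marker lists are given within these sample sets only where stated. One incisor sample was discarded in the study for a technical problem at hybridization, with high background, without being named. All 4 were therefore used here, and that array should be among them.

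Between lower incisors and mandibular molars, the chymase genes were higher in the incisor. Probe sets were tested with limma where any of the samples compared exceeded a log2 signal of 5, and a gene was taken as differentially expressed at a Benjamini-Hochberg adjusted p under 0.1 over all probe sets tested and a fold change above 1.2. Of the 10 genes 7 were tested, and 4 were higher in lower incisors (*Mcpt2*, *Mcpt4*, *Cma1* and *Tpsb2*), against 2.18% of 29258 probe sets overall. The differences of *Mcpt2* and *Mcpt4* exceeded 2-fold, as did 0.222% of all probe sets in this direction, though that of *Mcpt4* did not without lower incisor 4 (0.96 on the log2 scale). One gene, *Kit*, was lower, against 2.75% overall. The median log2 difference of the 7 was 0.50, beside 0.02 over all probe sets tested. *Mcpt2* entered the test through the incisors alone, since no molar sample was above 5.

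**Figure D1:**
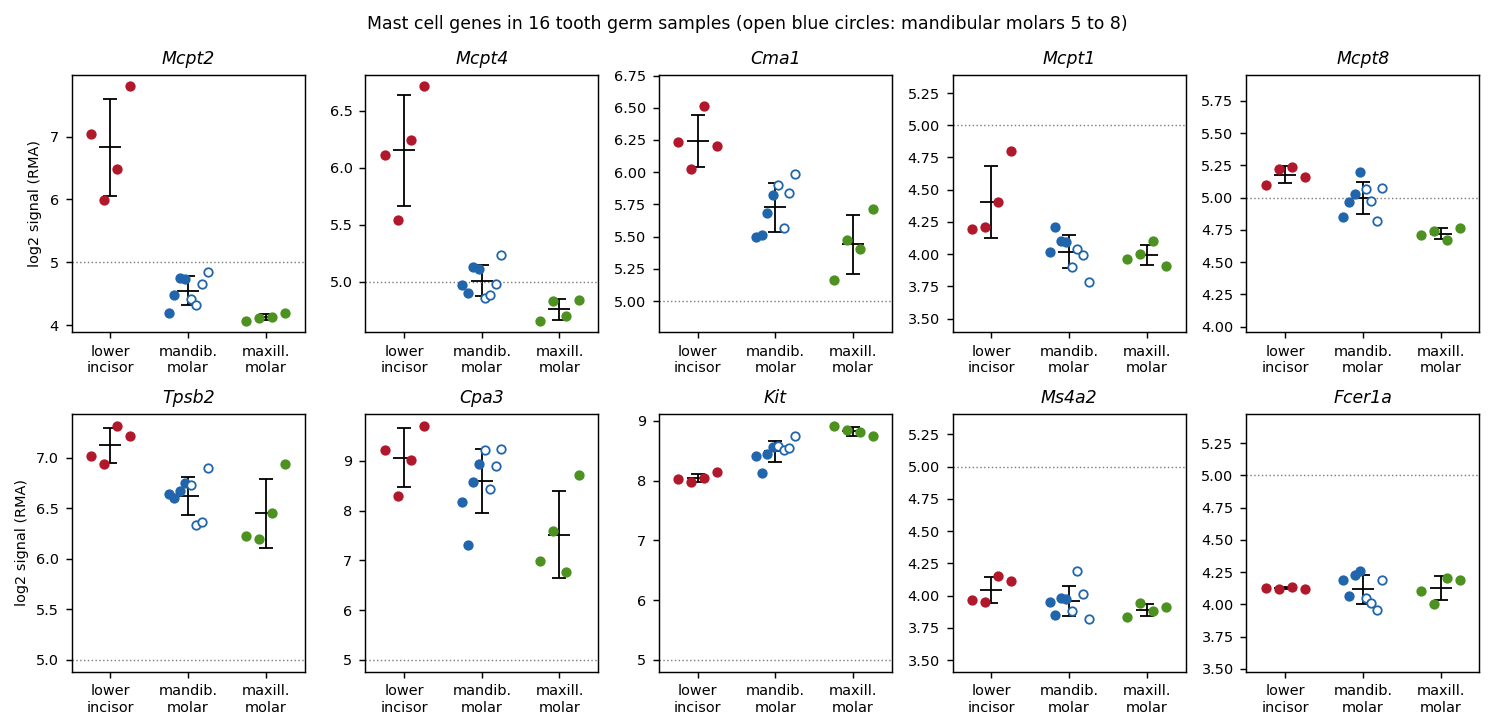
Log2 signal of each mast cell gene in each sample, by tooth type, with the group mean and SD in black. Open circles are mandibular molars 5 to 8 and the dotted line is the minimum signal of 5. *Mcpt2* lies above 5 in the 4 lower incisors and below it in all molars, while *Ms4a2* and *Fcer1a* lie below 5 everywhere.

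*Mcpt2*, a granule protease gene, had log2 signals of 7.03, 6.00, 6.48 and 7.80 in lower incisors 1 to 4. In mandibular molars 1 to 8 they were 4.19, 4.48, 4.75, 4.73, 4.41, 4.33, 4.66 and 4.84. The lowest incisor thus lay more than 1 log2 unit above the highest molar, and the incisors spread more among themselves (SD 0.77 over 4 samples) than the molars (SD 0.23 over 8). The log2 difference of the signals was 2.28 (standard error 0.26, limma adjusted p = 0.000247). Since every molar value lay under the minimum signal, the level there is known only as a bound, and with values under 5 set to 5 the signal was at least 3.55-fold higher in lower incisors (1.83 on the log2 scale, adjusted p = 0.000942).

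*Mcpt4*, which encodes the main chymase of mouse connective tissue mast cells, was also separated. Its signals were 6.11, 5.54, 6.25 and 6.72 in lower incisors, against 4.97, 4.90, 5.13, 5.11, 4.86, 4.88, 4.98 and 5.23 in mandibular molars. The groups did not overlap, and as for *Mcpt2* incisor 4 was highest and incisor 2 lowest. This gave a log2 difference of 1.14 (standard error 0.16, limma adjusted p = 0.00142), or 2.21-fold.

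*Cma1*, the gene of another chymase, had signals of 6.23, 6.02, 6.52 and 6.20 in lower incisors and 5.50, 5.51, 5.69, 5.82, 5.90, 5.56, 5.84 and 5.99 in mandibular molars. The groups were separated only narrowly, by incisor 2 and molar 8. Its log2 difference was 0.52 (standard error 0.11, limma adjusted p = 0.0237).

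*Tpsb2*, which encodes the tryptase mMCP-6, had signals of 7.01, 6.94, 7.32 and 7.22 in lower incisors, against 6.64, 6.60, 6.67, 6.75, 6.73, 6.34, 6.36 and 6.90 in mandibular molars. Again incisor 2 and molar 8 came closest, without overlap. The log2 difference was 0.50 (standard error 0.11, limma adjusted p = 0.0245), and it did not pass without lower incisor 3 (0.43, adjusted p = 0.101). These 4 genes were those of the 7 tested whose incisor values all lay above the molar values, a pattern that 1.77% of all probe sets tested had.

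*Cpa3*, the gene of the granule carboxypeptidase, behaved otherwise. Its signals were 9.23, 8.29, 9.03 and 9.71 in lower incisors and 8.18, 7.31, 8.58, 8.94, 9.22, 8.44, 8.89 and 9.23 in mandibular molars. The groups overlapped widely, and molars spread over nearly 2 log2 units. The log2 difference of 0.46 had a 95% confidence interval of -0.28 to 1.21 (limma adjusted p = 0.477), which leaves room for a difference as large as that of *Mcpt4*. Single samples moved it, to 0.25 without lower incisor 4, 0.72 without lower incisor 2 and 0.28 without mandibular molar 2, and it passed in none of the fits that left out 1 sample. *Mcpt8*, the basophil protease gene, was near the minimum signal, at 5.10 to 5.24 in lower incisors and 4.82 to 5.20 in mandibular molars (difference 0.18, limma adjusted p = 0.200).

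*Kit* went the opposite way to the proteases. It had log2 signals of 8.02, 7.97, 8.04 and 8.14 in lower incisors, against 8.41, 8.12, 8.44, 8.55, 8.58, 8.51, 8.55 and 8.74 in mandibular molars. Only mandibular molar 2, at 8.12, fell within the range of the incisors. *Kit* was lower in incisors by a log2 difference of -0.44 (standard error 0.09, limma adjusted p = 0.0192). Its ligand gene *Kitl* did not pass (difference 0.14, adjusted p = 0.326).

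The chains of the high-affinity IgE receptor were not measured above 5 in any sample. *Fcer1a* ranged from 4.12 to 4.14 in lower incisors, from 3.96 to 4.26 in mandibular molars and from 4.01 to 4.21 in maxillary molars. For *Ms4a2* the incisors lay between 3.95 and 4.15, the mandibular molars between 3.82 and 4.19 and the maxillary molars between 3.83 and 3.94. *Mcpt1* was below 5 too, with 4.20 to 4.80 in lower incisors, between 3.79 and 4.21 in mandibular molars and between 3.91 and 4.10 in maxillary molars. With no sample above 5 it entered none of the main comparisons. Without the filter, limma called it higher in lower incisors than in mandibular molars (0.38, adjusted p = 0.0950) and maxillary molars (0.41, adjusted p = 0.0516). Against mandibular molars 1 to 4 it did not pass (0.30, limma adjusted p = 0.633). Its relatives *Mcpt2* and *Mcpt4* are encoded in the same cluster, and how far their probe sets share signal was not tested.

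Within the first sample set, lower incisors against mandibular molars 1 to 4, the same 4 genes were higher by limma, against 0.832% of 29100 probe sets, and none was lower, against 0.948%. *Mcpt2* differed by 2.29 (adjusted p = 0.0185), *Mcpt4* by 1.13 (adjusted p = 0.0494), *Cma1* by 0.61 (adjusted p = 0.0546) and *Tpsb2* by 0.46 (adjusted p = 0.0707). None of them passed there by a plain t-test, which a figure legend of the study gives as its array test and which is referred to as the methods' t-test. *Kit* did not pass in this subset, with a difference of -0.34 (limma adjusted p = 0.241). Between mandibular molars 1 to 4 and 5 to 8, limma called none of the 6 genes tested, and 0 of them had an unadjusted p under 0.05, while 4.49% of 28936 probe sets were higher and 7.29% lower. The methods' t-test also called 0. The difference farthest from 0 there was that of *Cpa3*, -0.70 (limma adjusted p = 0.226).

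**Figure D2:**
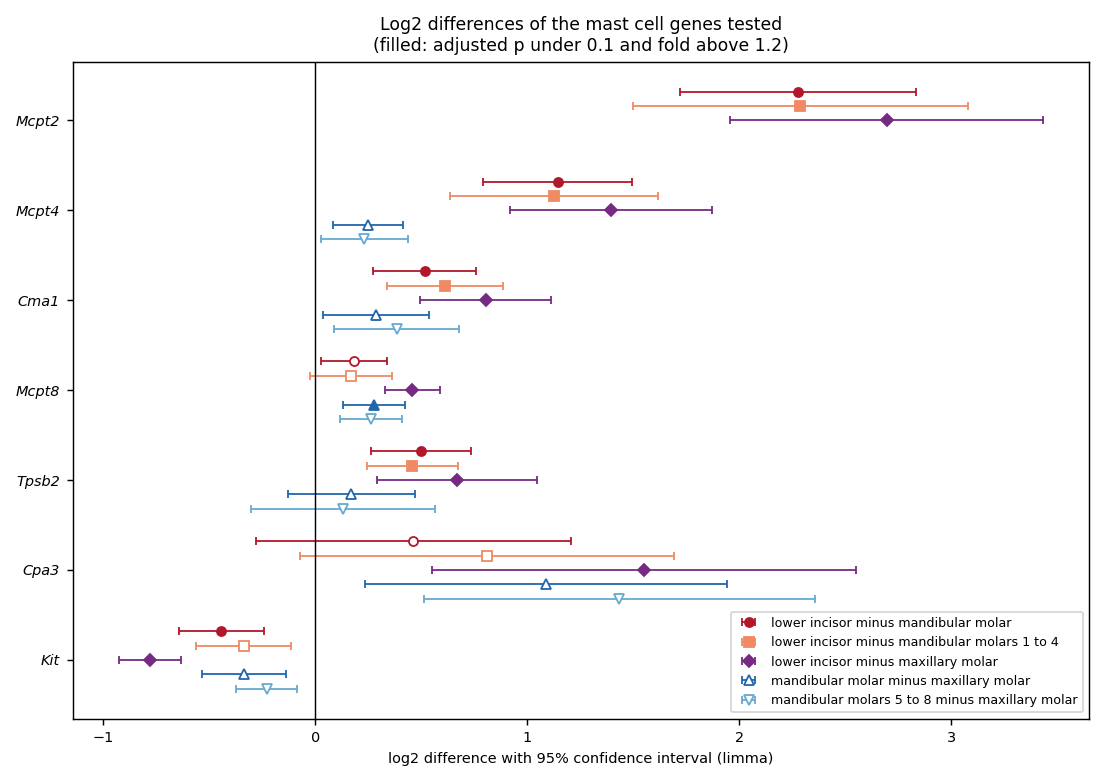
Log2 differences of the 7 mast cell genes that were tested, with 95% confidence intervals from limma, for each pair of tooth types and within the sample sets. Filled symbols passed at an adjusted p under 0.1 and a fold change above 1.2. The differences of *Mcpt2* from the incisor lie at 2.28 to 2.70, those of *Kit* below 0, and *Mcpt2* has no molar comparison because no molar sample was above 5.

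The genes that neighbour the chymases on chromosome 14 were compared to see how far along the cluster the incisor signal extended. Of 15 genes of the cluster 13 had a probe set of their own, and 7 were tested between lower incisors and mandibular molars. Besides *Mcpt2*, *Mcpt4* and *Cma1*, *Gzmb* (granzyme B, a protease of cytotoxic lymphocytes that mast cells can also make) was higher in lower incisors, and none was lower. These were 4 of 7, against 2.18% of all probe sets, and the methods' t-test called 3. Against mandibular molars 1 to 4 limma called 3 of the 7 higher (*Mcpt2*, *Mcpt4* and *Cma1*), beside 0.832% of all probe sets. The methods' t-test called 0. *Gzmb* had signals of 5.88, 5.13, 5.54 and 5.91 in lower incisors and of 5.02 to 5.32 in mandibular molars (difference 0.45, standard error 0.13, limma adjusted p = 0.0811), with incisor 2 inside the molar range. Not passing were *Mcpt8*, *Ctsg* (cathepsin G; difference -0.16, adjusted p = 0.350) and *Gzmg* (difference 0.02, adjusted p = 0.903). *Gzmc*, *Gzmd*, *Gzme*, *Gzmf* and *Gzmn*, granzyme genes of lymphocytes, and *Mcpt1* had no sample above 5. Of lymphocyte markers outside the cluster, 0 of 5 tested passed between lower incisors and mandibular molars by limma and 0 by the methods' t-test, with 3 of 5 at an unadjusted p under 0.05.

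**Figure D3:**
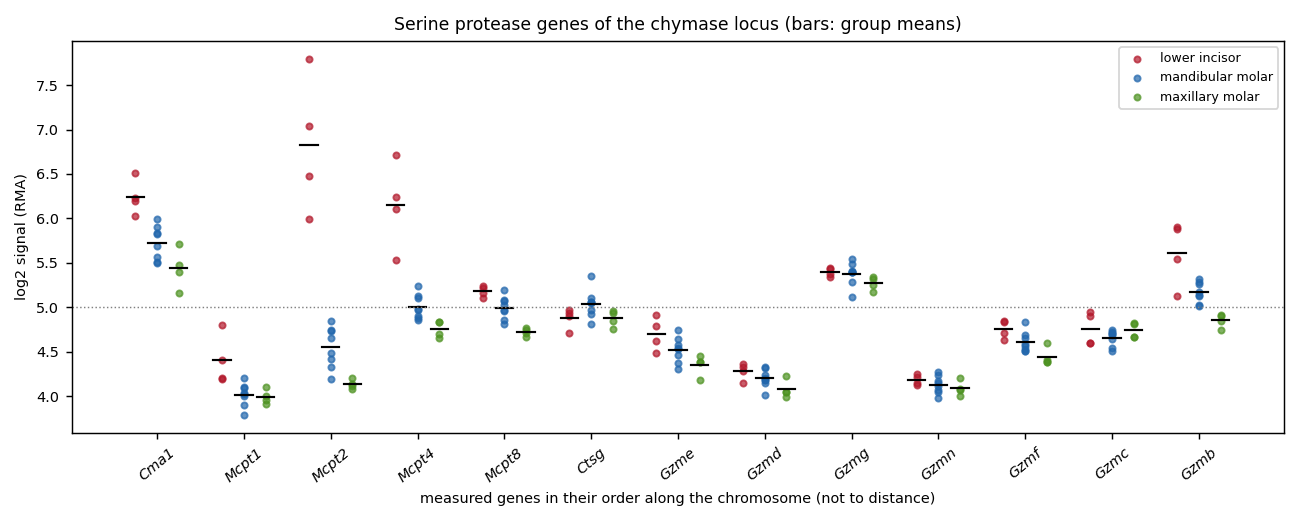
Log2 signals of the 13 measured genes of the chymase cluster, in their order along chromosome 14 and not to distance. Points are samples by tooth type, bars are group means and the dotted line is the minimum signal of 5. Levels are to be compared between tooth types within a gene. *Mcpt2* and *Mcpt4* show lower incisors clear of both molars, and *Gzmc*, *Gzmd* and *Gzme* lie below 5.

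Of 26 other genes of mast cells tested, 4 were higher in lower incisors than in mandibular molars and 0 lower, against 2.18% and 2.75% of all probe sets, and the methods' t-test called 2. Their median log2 difference was 0.10, beside 0.02 over all probe sets. *Hdc*, which encodes the histidine decarboxylase that makes histamine, had signals of 7.75, 7.43, 7.87 and 8.12 in lower incisors, against 6.63 to 7.36 in mandibular molars. No incisor overlapped a molar, and the difference was 0.64 (standard error 0.15, limma adjusted p = 0.0352). *Cyp11a1*, a steroid-synthesis gene, differed by 0.53 (adjusted p = 0.0937) and was above 5 in incisors only, and *Slc18a2*, the vesicular monoamine transporter gene, by 0.31 (adjusted p = 0.0139). *Gzmb*, described with the cluster, was the fourth. The incisor with the highest *Cyp11a1* signal was number 2, at 5.85, the sample that was lowest for *Mcpt2*. Against mandibular molars 1 to 4 alone, limma called 0 of the 26, with 7 at an unadjusted p under 0.05, and the methods' t-test called 0. The transcription factor genes of the lineage, *Gata2* (difference 0.23, adjusted p = 0.222) and *Mitf* (difference -0.02, adjusted p = 0.927), did not pass.

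Of 22 tested genes of Kit and IgE receptor signalling, 0 were higher in lower incisors than in mandibular molars (2.18% of all probe sets) and 1 was lower (2.75%), with 6 at an unadjusted p under 0.05 and 1 passing by the methods' t-test. The gene that was lower was *Fyn*, the gene of a Src-family kinase (difference -0.32, limma adjusted p = 0.0226), and the median of the 22 was -0.03. *Fcer1g*, the receptor's gamma chain, which macrophages also make, had signals of 7.47 to 8.48 in lower incisors and 8.08 to 8.79 in mandibular molars (difference -0.45, adjusted p = 0.208).

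Between mandibular and maxillary molars, 6 of the 10 genes were tested and *Mcpt8* was higher in mandibular molars, against 1.01% of 29068 probe sets. None was lower, against 1.18%, and none passed a fold change above 2, which 0.0998% of all probe sets did on the higher and 0.0963% on the lower side. *Mcpt8* had signals of 4.85, 4.96, 5.03, 5.20, 5.07, 4.97, 4.82 and 5.08 in mandibular molars, against 4.71, 4.74, 4.67 and 4.76 in maxillary molars. The groups did not overlap, but every maxillary value lay under the minimum signal, so the gene was tested through the mandibular samples only. Its difference of 0.28 (standard error 0.07, limma adjusted p = 0.0745) just exceeded the fold limit and did not pass in 8 of the 12 fits that left out 1 sample, with adjusted p values of 0.0368 to 0.227 over the 12. It did not pass within the second sample set either (0.26, adjusted p = 0.139), nor with values under 5 set to 5 (0.05, adjusted p = 0.558).

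*Cpa3* differed most between the molars without passing. Against the mandibular values given above, maxillary molars 1 to 4 had 6.98, 7.58, 6.77 and 8.72. Maxillary molars 2 and 4 reached into the mandibular range, molar 4 well into its middle. The difference was 1.09 (standard error 0.39, limma adjusted p = 0.215). Without maxillary molar 4 it was 1.49 and passed (adjusted p = 0.0980). With mandibular molars 5 to 8 alone the difference was 1.43 and did not pass (adjusted p = 0.189).

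*Kit* was on the lower side in mandibular molars, against 8.92, 8.84, 8.80 and 8.74 in maxillary molars (difference -0.34, standard error 0.09, limma adjusted p = 0.108), the groups meeting at 8.74. It passed without mandibular molar 2 (-0.28, adjusted p = 0.0582) or 8 (-0.37, adjusted p = 0.0593). *Mcpt4* had 4.66 to 4.84 in maxillary molars, under all mandibular values and under the minimum signal (difference 0.25, adjusted p = 0.147). *Cma1* (difference 0.29, adjusted p = 0.252) and *Tpsb2* (difference 0.17, adjusted p = 0.508) overlapped between the molars. *Mcpt2*, not tested here, ranged from 4.19 to 4.84 in mandibular and from 4.08 to 4.20 in maxillary molars. Within the second sample set, mandibular molars 5 to 8 against maxillary molars, limma called 0 of 6, with 5 at an unadjusted p under 0.05, and the methods' t-test called 0. There 0.54% of 28686 probe sets were higher and 0.743% lower.

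Among the other genes of mast cells, *Gzmb* was higher in mandibular than in maxillary molars (difference 0.31, limma adjusted p = 0.0384) with no maxillary sample above 5, and *Slc18a2* was lower (difference -0.40, adjusted p = 0.0203), 1 each of 25 tested. *Kitl*, the gene of the Kit ligand, was higher in mandibular molars, at 8.28 to 8.63, against 8.20 to 8.35 in maxillary molars (difference 0.27, adjusted p = 0.0750). *Ptpn6*, a phosphatase gene of blood cells, was higher by 0.27 too (adjusted p = 0.0657). These were 2 of 22 signalling genes tested, and 0 were lower. The shares over all probe sets were 1.01% higher and 1.18% lower. Within the second sample set limma called 0 of the 22 signalling genes. Of the 25 other genes of mast cells, 0 were higher and 1 was lower there. The methods' t-test called 0 in either list within that set.

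Lower incisors and maxillary molars differed in all 7 genes tested, but each of these groups lies in another of the sample sets, and tooth type and set cannot be told apart. The 6 genes *Mcpt2* (difference 2.70), *Cpa3* (1.55), *Mcpt4* (1.39), *Cma1* (0.80), *Tpsb2* (0.67) and *Mcpt8* (0.46) were higher in lower incisors, and *Kit* was lower (-0.78), at limma adjusted p values of 0.000193 to 0.0319. Overall 13.4% of 29075 probe sets were higher and 14.4% lower. *Mcpt2*, *Cpa3* and *Mcpt4* exceeded 2-fold, against 0.743% of all probe sets. *Mcpt2*, *Mcpt4* and *Mcpt8* were tested through the incisors alone, no maxillary sample being above 5, so their maxillary levels are bounds. With values under 5 set to 5, *Mcpt2* was at least 3.55-fold and *Mcpt4* at least 2.22-fold higher in lower incisors, while *Mcpt8* (0.18 on the log2 scale) no longer reached the fold limit. *Cpa3* overlapped between the groups through maxillary molar 4, and did not pass without lower incisors 1 and 4 (1.14, adjusted p = 0.134). *Tpsb2* had 6.22, 6.20, 6.45 and 6.93 in maxillary molars, and *Cma1* had 5.16, 5.48, 5.40 and 5.72, below all incisors. *Hdc* was also higher in lower incisors (difference 1.03, adjusted p = 0.00457), as were 8 more of 25 other genes of mast cells, with 3 lower. The 3 comparisons share samples, each tooth type entering a pair of them, so they do not count as separate evidence.

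Some samples ranked first or last in their tooth type for several of the 7 genes tested. Lower incisor 2 was the lowest incisor in 6 of the 7. Incisor 4 was the highest in 4 and incisor 3 in 3 (*Mcpt8*, *Cma1* and *Tpsb2*). Mandibular molar 8 was the highest mandibular sample in 6 of the 7, and maxillary molar 4 was the highest maxillary sample in 6 of the 7, the exceptions being *Mcpt8* in mandibular and *Kit* in maxillary molars. The lowest ranks were scattered in molars, no sample being lowest in more than 2 of the 7 in mandibular or 3 in maxillary molars. All molar values of *Mcpt2* and all maxillary values of *Mcpt4* and *Mcpt8* lay under the minimum signal. The genes come from the same arrays, so these ranks are a description and carry no test.

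Marker lists of other tissues moved with some of these ranks. The mean log2 signal of 14 cartilage genes was 8.14, 7.22, 7.41 and 8.14 in lower incisors 1 to 4, 6.87 to 7.08 in mandibular and 6.88 to 6.98 in maxillary molars. Incisors 1 and 4, highest for *Mcpt2* and *Cpa3*, thus also had most cartilage signal. Incisor 3 was instead highest for *Mcpt8*, *Cma1* and *Tpsb2*, and lay above incisor 1 for *Mcpt4* and *Kit*. Of the cartilage genes 11 of 14 were higher in lower incisors than in mandibular molars by limma, against 2.18% of all probe sets. The methods' t-test called 7. Against mandibular molars 1 to 4 limma called 3 of 14 higher, beside 0.832% of all probe sets, and the methods' t-test called 0. A fit without lower incisors 1 and 4, chosen after seeing the data, kept only lower incisors 2 and 3. There *Mcpt2* (1.69), *Mcpt4* (0.88, thus under 2-fold) and *Kit* (-0.48) passed between lower incisors and mandibular molars. *Cma1* (0.54, limma adjusted p = 0.101) and *Tpsb2* (0.50, adjusted p = 0.105) did not pass, and the *Cpa3* difference was 0.06. The cartilage means of the incisors kept, 7.22 and 7.41, lay above those of all molars, so the part of cartilage was not tested by this fit. The mean of 10 genes of keratinizing epithelium lay between 7.36 and 7.75 in lower incisors, between 6.56 and 7.47 in mandibular molars and between 6.78 and 7.37 in maxillary molars. Of these genes 4 of 10 were higher in lower incisors than in mandibular molars, against 2.18% of all probe sets. Against mandibular molars 1 to 4 limma called 5 of 10 higher and the methods' t-test called 2. Mandibular molar 8 (7.47, others at most 6.96) and maxillary molar 4 (7.37, others at most 6.85) stood highest for this mean in their groups, the same samples that ranked first for most of the mast cell genes. The mean of 9 dental mesenchyme genes had the same order of tooth types as *Kit*, with 9.63 to 9.87 in lower incisors, between 10.49 and 10.75 in mandibular molars and between 10.78 and 10.90 in maxillary molars. Within tooth types the order could differ, since lower incisor 2 had the highest mean of the incisors (9.87) and the lowest *Kit* signal (7.97). Of the 9 mesenchyme genes 5 were lower and 0 higher in lower incisors than in mandibular molars, against 2.75% and 2.18% of all probe sets. Those changed most were *Barx1*, *Lhx6*, *Dlx1* and *Pax9*, transcription factor genes of dental mesenchyme (-3.06 to -1.14). The study lists *Barx1*, *Lhx6* and *Dlx1* as already known to differ between incisors and molars. The mean of this list is therefore not a measure of the amount of dental mesenchyme. Of 14 skeletal muscle genes, 11 were higher in mandibular than in maxillary molars by limma (1.01% of all probe sets) and 7 passed by the methods' t-test. With mandibular molars 5 to 8 alone limma called 7 of 14 higher, beside 0.54% of all probe sets, and the methods' t-test called 1. In lower incisors 3 of 14 were higher than in mandibular molars (2.18% of all probe sets), and 1 was higher than in mandibular molars 1 to 4. Between lower incisors and maxillary molars, 13 of 14 cartilage, 14 of 14 skeletal muscle and 4 of 10 keratinizing epithelium genes were higher in lower incisors, and 7 of 9 dental mesenchyme genes were lower and 1 higher. The shares over all probe sets there were 13.4% higher and 14.4% lower. The part of these tissues in the mast cell and *Kit* signals was not tested.

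**Figure D4:**
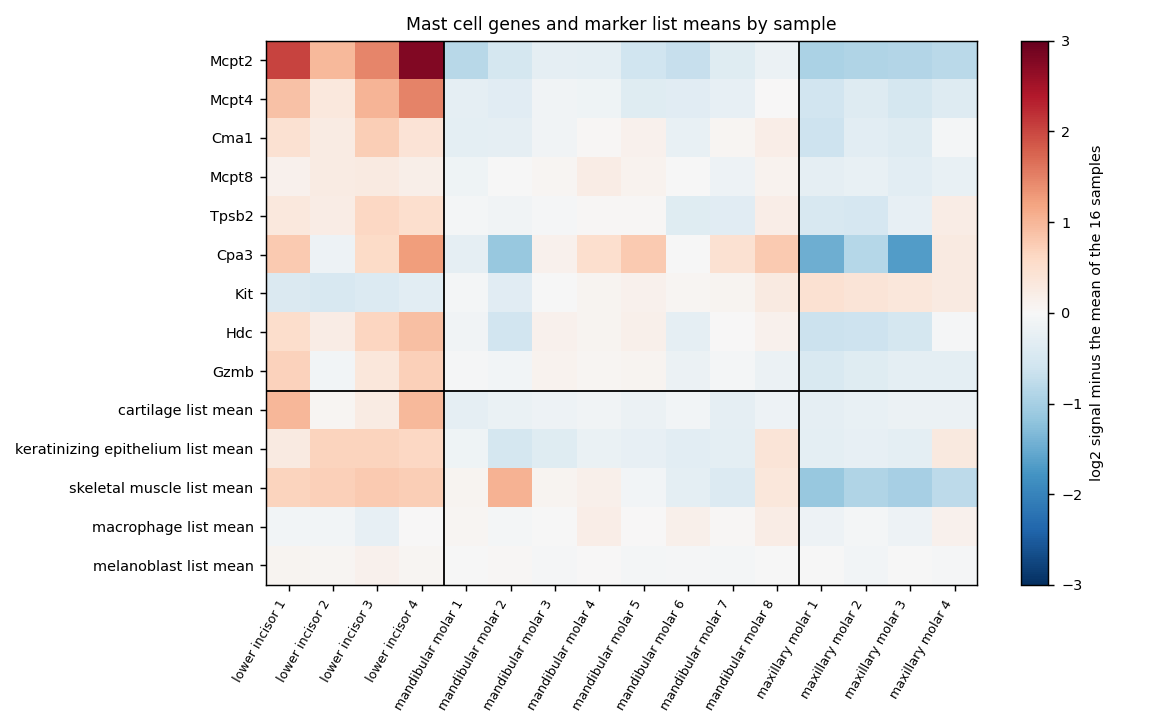
Log2 signal minus the mean of the 16 samples, for the 7 mast cell genes tested, *Hdc*, *Gzmb* and the means of 5 marker lists (rows), in each sample (columns), with tooth types divided by vertical lines. The cartilage mean is highest in lower incisors 1 and 4, and the keratinizing epithelium mean stands out among molars in mandibular molar 8 and maxillary molar 4.

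Other blood and pigment cells were checked by their markers. The mean of 14 macrophage genes overlapped among tooth types, with 7.27 to 7.55 in lower incisors, between 7.47 and 7.74 in mandibular molars and between 7.38 and 7.65 in maxillary molars. Of these genes 0 were higher and 2 lower in lower incisors than in mandibular molars by limma, against 2.18% and 2.75% of all probe sets. The 2 were *Mrc1* (-0.40, limma adjusted p = 0.0638) and *Adgre1* (-0.32, adjusted p = 0.0754), both macrophage surface proteins. The methods' t-test called 0 of the 14, and against mandibular molars 1 to 4 both tests called 0. The macrophage mean was also highest in mandibular molar 8 (7.74) and maxillary molar 4 (7.65) within their groups. For melanoblasts, which also use Kit, 1 of 9 tested genes was higher in lower incisors by limma, *Sox10* (0.36, adjusted p = 0.0683), against 2.18% of all probe sets. The methods' t-test called 0 of the 9, and against mandibular molars 1 to 4 both tests called 0. The pigment enzyme gene *Tyr* was below 5 in all 16 samples. Of neutrophil and myeloid genes 1 of 10 was lower in lower incisors by limma, *S100a8* (-0.28, adjusted p = 0.0661), against 2.75% of all probe sets. The methods' t-test also called 1, and against mandibular molars 1 to 4 both tests called 0. Of 8 erythroid genes limma called 0 between lower incisors and mandibular molars, with 1 at an unadjusted p under 0.05 and 0 passing by the methods' t-test. Between lower incisors and maxillary molars, 4 of 7 erythroid genes (median difference 0.72) and 3 of 5 lymphocyte genes (median 0.28) were higher in lower incisors, beside 13.4% of all probe sets.

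The genes with profiles nearest to *Mcpt2* over the 16 samples, by root mean square difference of the centred log2 signals, were *Acan* (aggrecan, of cartilage matrix; 0.39), *Isl1* (a homeobox gene of the distal jaw; 0.42), *Dpep1* (0.43), *Irx4* (0.48) and *Nts* (neurotensin; 0.49), out of 17327 genes. *Mcpt4* came 15th, at 0.56. For *Mcpt4* the nearest were *Sst* (somatostatin; 0.15), *Hand1* (a transcription factor gene; 0.19), *Slc6a17* (0.22), *Col9a1* (a cartilage collagen gene; 0.22) and *Syt17* (0.24). Of the other genes among the 10, *Cma1* came nearest to *Mcpt4*, in place 96, while *Mcpt2* was in place 4551. *Kit* was in place 16912 for *Mcpt2* and 16820 for *Mcpt4*. The measure follows the size of a change as well as its direction, and all points share the same arrays.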

How the data were processed

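Total RNA of pooled tooth germs was hybridized to Affymetrix Mouse Gene 1.0 ST arrays. The authors deposited log2 signals made by RMA in Affymetrix Expression Console 1.1 (submitters' processing notes) for 35556 probe sets, of which 21789 had 1 gene symbol, 1621 several and 12146 none in GEO's platform annotation, with symbols updated through RefSeq (GRCm38.p6). No further normalization was applied. An array gives no read depth, and precision is that of the samples.

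Linear models were fitted with limma 3.58.1 in R 4.3.3 (lmFit, eBayes) to the 2 groups compared, without a block, on probe sets above 5 in at least 1 compared sample, with Benjamini-Hochberg adjustment over all of them. The procedure was tested on simulated data. Genes named are the 10 mast cell genes, up to 4 passing genes with the largest difference per marker list, the measured genes of the chymase cluster and the 5 nearest profiles to *Mcpt2* and *Mcpt4*. *Gata2*, *Mitf*, *Fcer1g*, *Kitl* between incisors and mandibular molars, *Tyr*, *Krt14* and *Hand2* were named after their values were seen. Genes and lists were chosen with earlier results of these data known. Genes that share a probe set with another symbol are not analysed here. The alternatives were other filters, a floor, other normalizations and variance models, the methods' t-test, other samples in the fit, a replicate block, the mean over the probe sets of a gene and each sample left out. Promoter stretches were aligned globally in pairs (Biopython).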

Additional observations from a re-analysis of the deposited data

How the results depend on the processing

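The limits are few samples, signals of *Mcpt2*, *Mcpt4* and *Mcpt8* near or under the minimum in molars, and sample sets that the labels do not name. Of 440 single-gene values under the alternatives run, 410 kept their direction and side of the threshold, 20 no longer passed, 10 newly passed and none reversed. The alternative of a mean over probe sets could not differ from the main fit, since each of the 10 genes had 1 probe set, and its values are among the 410. Between lower incisors and mandibular molars 5 genes passed in the main analysis, 2 at a fold change above 2 (*Mcpt2* and *Mcpt4*), 3 without lower incisors 1 and 4 (chosen after seeing the data), and 4 to 5 when 1 sample was left out. The other settings left the count within 1.5 times.

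Between mandibular and maxillary molars 1 gene passed in the main analysis. With limma 0 passed at a fold change above 2, with values under 5 set to 5, after quantile normalization, after median centring, with trend and robust variances (*Mcpt8* adjusted p = 0.1001), and with mandibular molars 5 to 8 alone. The methods' t-test called 1, and 5 of the 6 tested had an unadjusted p under 0.05 in the main analysis. In one fit of the 3 tooth types 2 passed (*Mcpt8* and *Kit*), and with mandibular molars 1 to 4 alone, added after seeing the data, 3 passed (*Mcpt4*, *Mcpt8* and *Kit*). Leaving out 1 sample gave 0 to 2. Between lower incisors and maxillary molars 7 passed, 3 at a fold change above 2, 6 with values under 5 set to 5, and 7 in every fit that left out 1 sample. The causes of these changes were not tested.

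Nothing in the labels says that a replicate number marks shared animals or a batch, and not every same-numbered pair correlated above 0.1, so the numbers were not used to pair samples. Same-numbered samples of lower incisors and mandibular molars had correlations of deviations of 0.0915 to 0.669, those of mandibular and maxillary molars of 0.0103 to 0.393 and those of lower incisors and maxillary molars of -0.0689 to 0.243. With a replicate block on samples 1 to 4, *Cpa3* passed between lower incisors and mandibular molars (0.81, limma adjusted p = 0.0452) and *Kit* did not (adjusted p = 0.140). Between the molars 3 genes passed. The same samples without the block also gave 3 genes between the molars and no pass for *Kit* (limma adjusted p = 0.241). *Cpa3* did not pass without the block (limma adjusted p = 0.629).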
